A study of Mus musculus with 3 samples.

Results

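Runx proteins and their partner CBFβ, and the Ets proteins, are transcription factors of T cells that act on many of the same enhancers. The 9 genes described here were Runx1, Runx2 and Runx3, the partner gene Cbfb, and the Ets family genes Ets1, Ets2, Fli1, Elf1 and Gabpa. They were examined in a profile of H3K36me3, the trimethylated lysine 36 of histone H3, in regulatory T (Treg) cells from spleen and large intestine (LI). The genes were chosen by name, with earlier results of these data known. Their peaks were those with the midpoint inside the gene body of the GENCODE M21 annotation. By this rule the 9 genes held 341 of the 120910 deposited peaks, out of 11948 genes with at least 1 peak. The Runx genes had 185 peaks, Cbfb had 21 and the Ets genes had 135.

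Treg cells positive for CD3, CD4 and the YFP reporter of Foxp3 were sorted from adult Foxp3Cre-YFP mice of the C57BL/6 strain at steady state, with cells of 7 male and 7 female mice pooled. The spleen and LI libraries came from mice of 1 genotype, Foxp3-YFP, in which Cre and YFP are made under control of Foxp3. There was 1 immunoprecipitated library per tissue, and the third library of the series, the input of splenic Treg cells, was not analysed here. From the steps in the deposited values, the spleen library had 29600000 mapped reads and the LI library 38100000. No difference below has a replicate check, so values, ratios and approximate intervals of counting error are given and no p-value. In pooled cells, a mark on fewer cells and a weaker mark on each cell cannot be told apart.

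Runx proteins bind DNA through their Runt domain, and CBFβ, which does not bind DNA itself, strengthens that binding. Runx1 together with CBFβ helps to maintain Foxp3 in Treg cells, Runx3 silences Cd4 in CD8 T cells and acts in intestinal lymphocytes, and Runx2 is best known from bone formation. Each Runx gene is transcribed from a distal and a proximal promoter, which give proteins with different first residues. Ets proteins bind a GGAA core through their Ets domain. Ets1 is needed for normal T cell development and for Foxp3 expression, Elf1 and Fli1 act in lymphocyte development, and Gabpa encodes the DNA-binding subunit of GABP, which works with a β subunit. H3K36me3 is written by Setd2, which travels with elongating RNA polymerase II, so that the mark lies over the bodies of transcribed genes.

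Promoter sequences from RefSeq (build GRCm38.p6) were read for 7 of the 9 genes, from 250 bases before to 50 bases after the transcript start. They are shown for the Runx genes, because the mark in the gene bodies began after different starts, and for Gabpa as an Ets gene. Capitals mark the letters ACCACA or TGTGGT, the core bound by Runx proteins read on either strand, and CCGGAA or TTCCGG, a strong Ets site read on either strand. No Runx and Ets letters overlapped each other (0 overlaps in 10 promoters).
Runx1 distal promoter, chr16:92826025-92826324, minus strand: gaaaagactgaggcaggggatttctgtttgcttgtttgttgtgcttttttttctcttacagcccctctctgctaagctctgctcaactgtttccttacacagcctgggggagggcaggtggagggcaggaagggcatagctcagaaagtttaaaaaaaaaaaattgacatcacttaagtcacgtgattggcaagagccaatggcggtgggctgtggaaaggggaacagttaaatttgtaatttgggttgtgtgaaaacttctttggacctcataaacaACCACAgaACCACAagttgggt
Runx1 proximal promoter, chr16:92697280-92697579, minus strand: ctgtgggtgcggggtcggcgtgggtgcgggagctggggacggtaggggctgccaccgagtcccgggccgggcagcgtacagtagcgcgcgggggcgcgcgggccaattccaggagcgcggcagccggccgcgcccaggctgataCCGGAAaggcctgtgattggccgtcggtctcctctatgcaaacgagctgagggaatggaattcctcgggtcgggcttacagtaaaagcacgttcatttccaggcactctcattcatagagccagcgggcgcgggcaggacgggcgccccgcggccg
Runx2 distal promoter, chr17:44814578-44814877, minus strand: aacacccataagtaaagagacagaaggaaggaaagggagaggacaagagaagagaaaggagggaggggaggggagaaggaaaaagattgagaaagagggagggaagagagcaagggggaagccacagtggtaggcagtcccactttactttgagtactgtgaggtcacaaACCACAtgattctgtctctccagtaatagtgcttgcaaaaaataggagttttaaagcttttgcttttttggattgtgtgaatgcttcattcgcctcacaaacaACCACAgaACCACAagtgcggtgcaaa
Runx3 distal promoter, chr4:135120395-135120694, plus strand: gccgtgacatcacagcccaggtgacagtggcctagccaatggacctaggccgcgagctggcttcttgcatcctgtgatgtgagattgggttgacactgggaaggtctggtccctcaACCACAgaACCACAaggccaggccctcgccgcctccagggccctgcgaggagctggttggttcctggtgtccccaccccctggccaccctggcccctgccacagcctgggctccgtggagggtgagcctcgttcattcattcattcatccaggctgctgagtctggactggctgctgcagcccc
Runx3 proximal promoter, chr4:135152295-135152594, plus strand: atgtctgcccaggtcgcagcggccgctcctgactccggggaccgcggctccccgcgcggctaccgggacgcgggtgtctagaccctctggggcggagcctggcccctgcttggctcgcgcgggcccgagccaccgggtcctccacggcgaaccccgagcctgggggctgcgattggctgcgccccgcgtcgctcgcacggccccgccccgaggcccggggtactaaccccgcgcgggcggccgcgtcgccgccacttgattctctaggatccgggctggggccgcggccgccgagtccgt
Gabpa promoter, chr16:84834874-84835173, plus strand: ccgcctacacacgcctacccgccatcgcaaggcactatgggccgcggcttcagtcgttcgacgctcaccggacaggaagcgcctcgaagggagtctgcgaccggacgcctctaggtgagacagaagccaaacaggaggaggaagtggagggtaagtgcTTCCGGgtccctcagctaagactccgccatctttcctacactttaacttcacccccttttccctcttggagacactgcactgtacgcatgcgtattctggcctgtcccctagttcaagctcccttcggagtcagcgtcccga

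The distal promoters of all 3 Runx genes held Runx letters, and each held a pair of them 2 bases apart in the same direction, ACCACANNACCACA. The pair began 28 bases after the annotated start in Runx1 and 23 bases after it in Runx2, and in Runx3 it lay 134 bases before the start. Runx2 had a further Runx match upstream. Single Runx letters occurred in 16.8% of the 32851 promoters of the table, but the pair, which was searched for after it had been seen in these sequences, occurred in 7 promoters (0.0213%). The proximal promoters of Runx1 and Runx3 held no Runx letters. Ets letters were found in 14.9% of all promoters and, among the 10 promoters of these genes, in the Runx1 proximal promoter and the Gabpa promoter. The promoters of Cbfb, Ets2 and Elf1 held neither. These matches are descriptions of the letters and not of binding.

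The clearest difference between the tissues lay in the Runx genes. Summed over the gene, H3K36me3 was 2.39-fold higher in LI at Runx2, 1.60-fold at Runx3 and 1.31-fold at Runx1. Cbfb went the other way and was 1.35-fold higher in spleen. In this sum, where each peak counts alike, the 5 Ets genes differed by at most 1.15-fold in either direction. The approximate 95% counting interval of each held 0 on the log2 scale. These intervals took 1 read to cover 200 bp. With 75 bp, the read length, they were narrower and no longer held 0 for Fli1 (0.04 to 0.21), Ets1 (-0.20 to -0.02), Elf1 (-0.24 to -0.03) and Gabpa (-0.34 to -0.06). Weighted by peak length, the log2 ratios were -0.17 for Ets1, 0.08 for Ets2, 0.19 for Fli1, -0.08 for Elf1 and -0.15 for Gabpa. No interval is given for these weighted values, so the sum alone does not show that Ets1 and Fli1 were alike in the tissues. All values are mean RPKM coverage per peak (read coverage per kilobase, scaled to the mapped reads), and ratios were taken after the LI column had been scaled to the spleen total over all peaks, with 0.5 RPKM added to both values.

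**Figure D1:**
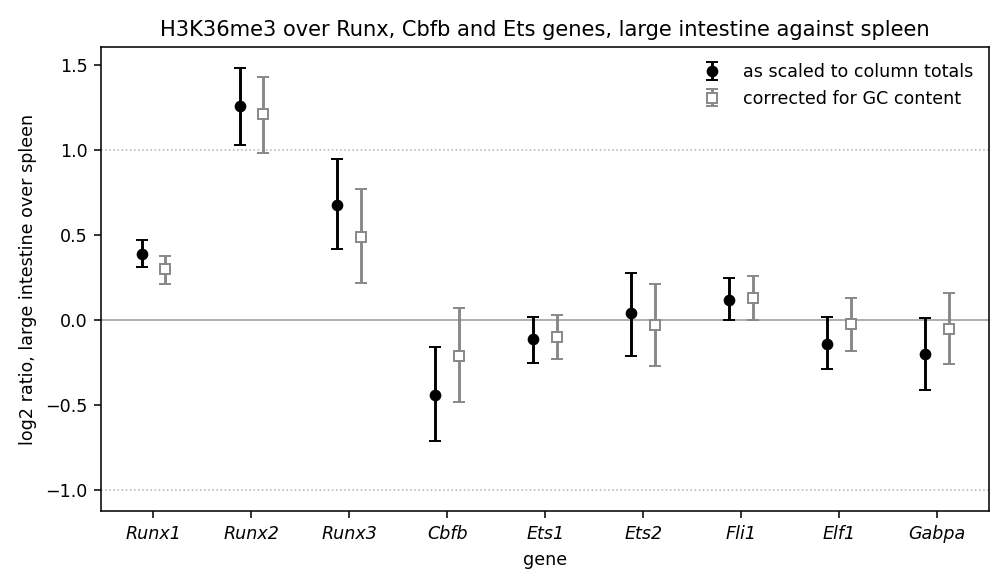
Log2 ratio of summed H3K36me3, LI over spleen, for each gene, with approximate 95% counting intervals as bars; filled circles are scaled to column totals, open squares are also corrected for GC content, and dotted lines mark 2-fold. Runx1, Runx2 and Runx3 lie above 0 in both versions, while the interval of Cbfb lies below 0 only before the correction.

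To set these values against the genome, the same ratio was computed for the 10887 genes whose sum of both libraries reached 20 RPKM, whose median was 0.01 and whose middle 50% lay between -0.20 and 0.24. All 9 genes passed this filter, and their median was 0.04. Past 2-fold were 1 of the 9 genes in the LI direction (Runx2), against 3.43% of all genes tested, and 0 in the spleen direction, against 2.04%. At 1.5-fold these numbers were 2 of 9 (Runx2 and Runx3) against 9.47%, and 0 of 9 against 6.22%. The counting interval lay above 0 for 3 genes, the Runx genes, against 17% of all genes, and below 0 for 1, Cbfb, against 14.2%. The shares at 2-fold and 1.5-fold rest on so few genes that no difference from the background can be read from them.

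Runx2 (ENSMUSG00000039153.16, mm10 chromosome 17, 44495987 to 44814797, minus strand) had the largest ratio of the 9 and the lowest level. Its 44 peaks summed to 209 RPKM in spleen and 516 RPKM in LI, a log2 ratio of 1.26 (1.03 to 1.48), and 43 of them were higher in LI. Of all deposited peaks, 49% were higher in LI. Past 2-fold in that direction were 26 of the 44 peaks, against 9.03% of all peaks, and 0 were past 2-fold in spleen, against 9.58%. Peaks were called in each tissue and merged, so a weak peak could enter through its LI value alone. The share over all peaks does not remove this selection in a gene of low level. How far it raised these counts and the summed ratio was not tested. Only 224 of the 10887 genes tested, Runx2 among them, had a ratio this high.

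The Runx2 peaks were short and few reads lay behind each. Their median length was 356 bp, they covered 6.22% of a body of 319 kb, and about 278 reads in spleen and 853 in LI stood behind the sum. The spleen values of the 42 peaks after the proximal start ran from 1.20 to 8.84 RPKM and the LI values from 7.10 to 19.1 RPKM, so the ranges overlapped, although each of the 42 peaks had more signal in LI. The strongest LI peak, at 44711732 to 44712236 in an intron, had 6.05 RPKM in spleen and 19.1 in LI. Its ratio was 1.54 with a counting SE of 0.56. The 4 peaks of 1 kb or more, where counting error is smaller, gave ratios between 0.65 and 1.32, and their sum gave 0.89, which is below 2-fold. Runx2os2, an antisense gene, overlapped 4 of the peaks and Supt3, a coding gene, overlapped 2. Without all peaks in other genes the ratio was 1.31.

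Runx3 (ENSMUSG00000070691.10, chromosome 4, 135120652 to 135177990, plus strand) carried the mark in 9 peaks, and all 9 were higher in LI. They summed to 93.5 RPKM in spleen and 155 RPKM in LI, a log2 ratio of 0.68 (0.42 to 0.95). Most of the covered length was 1 peak of 13336 bp, from 135162810 to 135176145, with its midpoint in an intron. It had 17.9 RPKM in spleen and 36.6 RPKM in LI. This peak had a ratio of 0.97 and a counting SE of 0.07, so the difference in it was measured more precisely than in the sum, where each peak counts alike. The last peak, in the untranslated region of the gene's end, had 12.8 and 21.6 RPKM. Weighted by peak length, the gene's ratio was 0.89.

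Runx1 (ENSMUSG00000022952.17, chromosome 16, 92601466 to 92826149, minus strand) had the most peaks of the 9 genes, 132, covering 59.1% of its body. These peaks summed to 1279 RPKM in spleen and 1728 RPKM in LI, a log2 ratio of 0.39 (0.31 to 0.47). More signal in LI was seen in 102 of the 132 peaks (77.3%), against 49% of all peaks. Past 2-fold were 26 in that direction and 3 in the other, against 9.03% and 9.58% of all peaks. These counts carry the selection by peak calling described for Runx2. The strongest peak, at 92605099 to 92606244 over a coding exon, had 28.4 RPKM in spleen and 46.1 RPKM in LI, a ratio of 0.64 (SE 0.19). The longest, a peak of 10514 bp with its midpoint in an intron, had 18.3 and 21.8 RPKM and a ratio of 0.20 (SE 0.08). The gene's peaks thus did not all differ to the same degree. An antisense gene, Gm26626, overlapped 4 of the peaks.

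Long peaks gave the most even picture of the Runx genes. Of their 41 peaks of 1 kb or more, 40 were higher in LI, with a median log2 ratio of 0.50. In all peaks of this length 51.4% were higher in LI, with a median of 0.01. In Runx1 32 of 33 such peaks were higher, and the exception had a ratio of -0.08. Peaks of 1 gene lie on the same transcripts and are not replicates of a tissue. Among the 3 genes, the ratio of Runx2 exceeded that of Runx3 by 0.58 (0.23 to 0.93), and that of Runx3 exceeded that of Runx1 by 0.29 (0.01 to 0.57), with intervals for counting error only. After the correction for GC content, described below, the second difference was 0.19 and its interval held 0 (-0.10 to 0.48), while the first was 0.72 (0.36 to 1.08).

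Cbfb (ENSMUSG00000031885.14, chromosome 8, 105170674 to 105217989, plus strand) held 21 peaks that summed to 198 RPKM in spleen and 151 RPKM in LI. The log2 ratio was -0.44 (-0.71 to -0.16). Of the 21 peaks, 16 were higher in spleen and 5 in LI (23.8%), against 49% of all peaks higher in LI. Past 2-fold were 4 in spleen and 1 in LI, against 9.58% and 9.03% of all peaks. The strongest spleen peak, at 105198678 to 105199044, had 16.6 RPKM in spleen and 9.80 RPKM in LI. Both peaks of 1 kb or more were lower in LI, the longer with 13.6 and 11.8 RPKM and the other with 11.6 and 8.08 RPKM. The partner gene thus stood 0.83 log2 units below Runx1 (0.54 to 1.12). The GC content of its peaks was 41.4%, the lowest of the 9 genes, and the correction for GC content moved its ratio to -0.21 with an interval that held 0 (-0.48 to 0.07) and the gap to Runx1 to 0.51 (0.22 to 0.80).

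**Figure D2:**
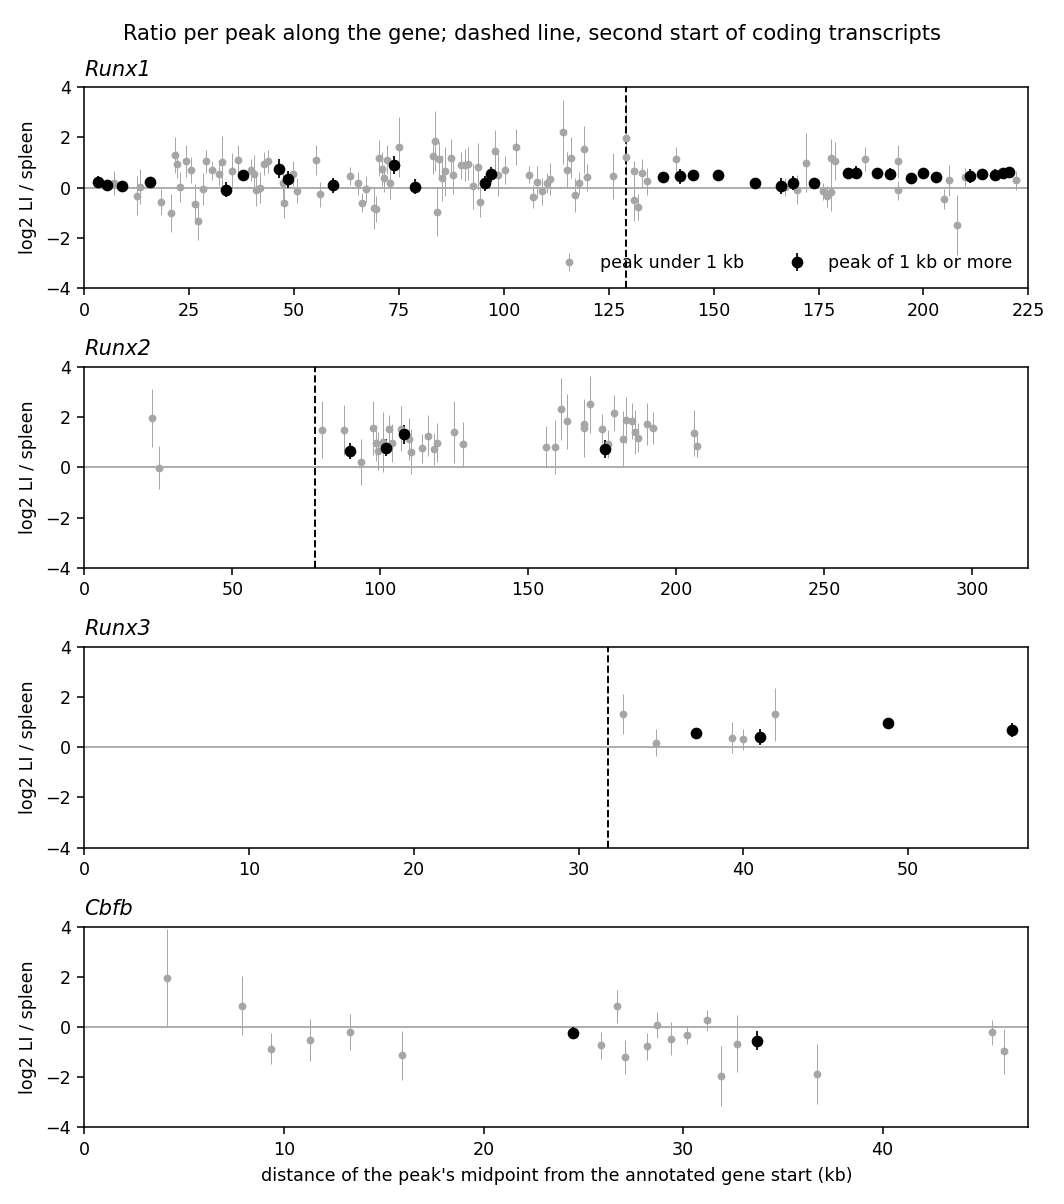
Log2 ratio of LI over spleen for each peak (vertical) against the distance of its midpoint from the annotated gene start in kb (horizontal), with bars of 1 counting SE; black points are peaks of 1 kb or more and the dashed line is the second start of coding transcripts. Runx3 has no peak before that line and Runx2 has 2, and the long peaks of the 3 Runx genes lie above 0 with 1 exception, while both long peaks of Cbfb lie below it.

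The position of the mark relative to the promoters differed among the Runx genes. In Runx3, no peak lay in the 31.8 kb between the distal and the proximal start, while the 25.5 kb after the proximal start were covered to 83.5%. The level per length, that is, the peak values averaged over all bases of the segment, with bases outside peaks counted as 0, was 12.5 RPKM there in spleen and 23.3 RPKM in LI. In Runx2, the 78.1 kb between the starts held 2 peaks, both shared with Supt3, and the 241 kb after the proximal start held 42. The part after the proximal start gave 198 RPKM in spleen and 498 RPKM in LI, a log2 ratio of 1.28 (1.05 to 1.51).

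Runx1 was marked on both sides of its proximal start. The 129 kb between the starts held 89 peaks with 783 RPKM in spleen and 1053 RPKM in LI, and the level per length was 4.27 and 5.44 RPKM. The 95.9 kb after the proximal start held 43 peaks with 496 and 675 RPKM, and a level of 11.1 and 14.8 RPKM. The mark was therefore denser after the proximal start in both libraries. The ratios of the segments, 0.38 (0.26 to 0.50) and 0.40 (0.29 to 0.51), differed by less than their counting error. A peak of 419 bp, from 92697440 to 92697858, overlapped the proximal promoter sequence and had 4.41 RPKM in spleen and 11.3 RPKM in LI.

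Of the 10 promoter windows of these genes, 2 overlapped a peak, against 4.50% of all promoters in the table. The other was the first promoter of Elf1, with a peak of 5.62 RPKM in spleen and 12.4 RPKM in LI. From the distal starts, the first peak began 2.28 kb downstream in Runx1, 22.3 kb in Runx2 and 32.5 kb in Runx3. That peak of Runx2 was shared with Supt3, and the first in no other gene had its midpoint 80.2 kb from the gene start. From the proximal starts the first peak began 0.515 kb downstream in Runx1 and 0.636 kb in Runx3. The distal promoters with the paired Runx letters carried no peak, like most promoters of the table, of which 4.50% overlapped one. The gap from the distal start to the next peak was shortest in Runx1.

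Of the Ets genes, Ets1 and Ets2 had the highest levels and Fli1 the most peaks. Ets1 (ENSMUSG00000032035.15, chromosome 9, 32636221 to 32757820, plus strand) had 14 peaks with 272 RPKM in spleen and 259.9 RPKM in LI, a log2 ratio of -0.11 (-0.25 to 0.02). Its first 59.8 kb, before the second start of coding transcripts, held 1 peak, and the 61.8 kb after it were covered to 94.8%. There the ratio was -0.14 (-0.26 to -0.01). Of the 9 peaks of 1 kb or more, 8 were lower in LI, and the longest, 27460 bp at 32726597 to 32754056, had 37.9 RPKM in spleen and 34.2 RPKM in LI, a ratio of -0.19 (SE 0.04).

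Ets2 (ENSMUSG00000022895.16, chromosome 16, 95702075 to 95721051, plus strand), the closest relative of Ets1, had 6 peaks with 90.5 RPKM in spleen and 95.7 RPKM in LI, a ratio of 0.04 (-0.21 to 0.28). Its longest peak, 7491 bp, had 25.7 and 27.3 RPKM. No difference was detectable at Ets2 at this depth, and the interval leaves room for log2 ratios from -0.21 to 0.28, in either direction.

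Fli1 (ENSMUSG00000016087.13, chromosome 9, 32422204 to 32542861, minus strand), a neighbour of Ets1, had 58 peaks with 624 RPKM in spleen and 702 RPKM in LI. Its log2 ratio was 0.12 (-0.00 to 0.25), with 37 of 58 peaks and 11 of 13 long peaks higher in LI. An antisense gene, Gm27201, overlapped 6 of the peaks. Fli1 exceeded Ets1, beside it on the chromosome, by 0.23 (0.05 to 0.41). The direction depended on the assignment of peaks: by the nearest transcript start, which left 2 peaks to Fli1 and 4 to Ets1 and gave the rest to other transcripts, the ratios were -0.60 for Fli1 and 0.17 for Ets1.

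Elf1 (ENSMUSG00000036461.16, chromosome 14, 79481194 to 79582494, plus strand) had 40 peaks with 421 RPKM in spleen and 396 RPKM in LI, a ratio of -0.14 (-0.29 to 0.02). Of these, 19 were higher in LI and 21 in spleen. Only 4 peaks lay in the 34.5 kb before its second start, and 36 in the 66.8 kb after it. Gabpa (ENSMUSG00000008976.16, chromosome 16, 84834925 to 84863779, plus strand) had 17 peaks with 204 and 183 RPKM, a ratio of -0.20 (-0.41 to 0.01), and 12 of the 17 were higher in spleen. In all, 71 of the 135 Ets peaks (52.6%) were higher in LI, near the 49% of all peaks, whereas 154 of the 185 Runx peaks (83.2%) were. Such counts carry the selection by peak calling described for Runx2.

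**Figure D3:**
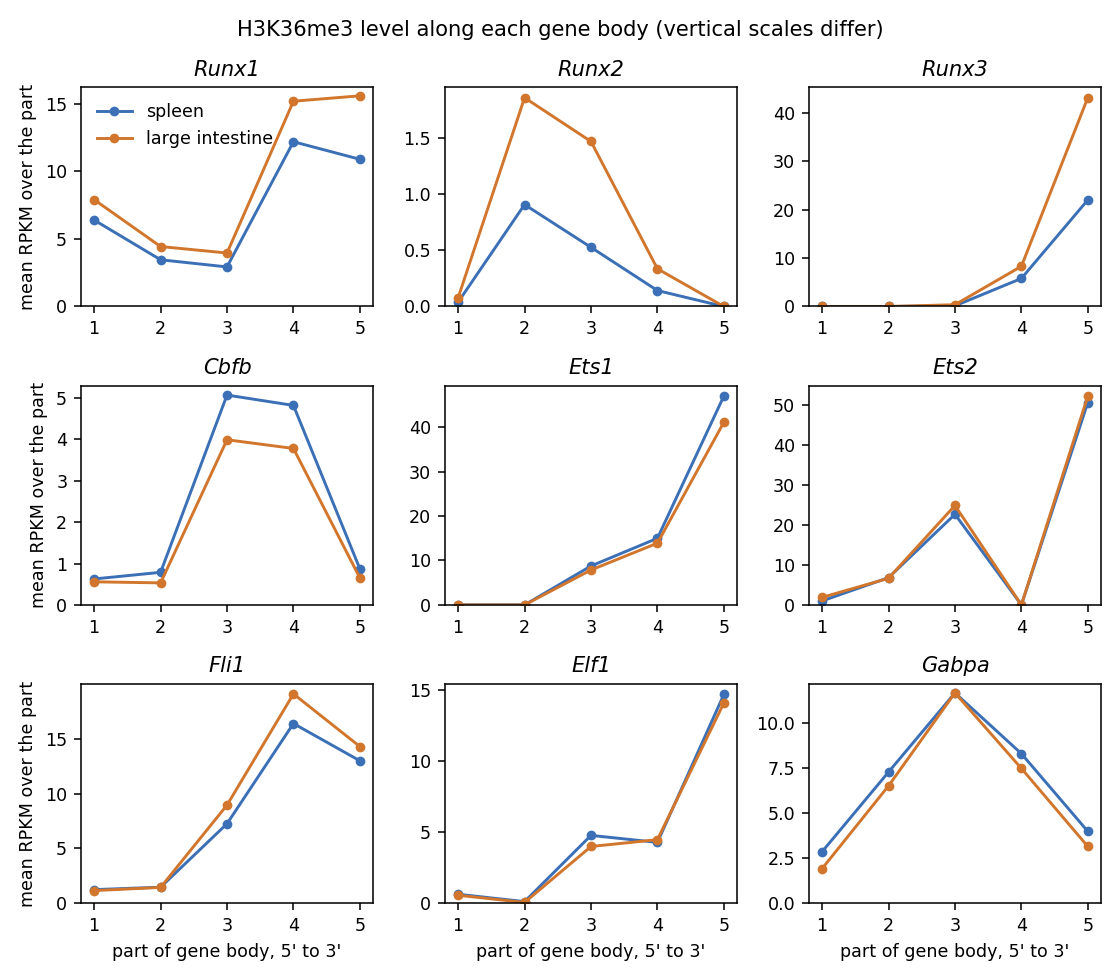
Level per length (peak value times peak length over the length of the part, in RPKM, LI scaled to the spleen total) in each of 5 equal parts of the gene body in the direction of transcription (horizontal), in spleen (blue) and LI (orange); vertical scales differ between genes. A peak is counted wholly in the part that holds its midpoint, so a part can exceed the RPKM of every peak and is not a true mean. The LI line is above the spleen line in each marked part of Runx1, Runx2 and Runx3 and below it in each part of Cbfb.

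Each gene body was divided into 5 equal parts in the direction of transcription, and the last part had a higher level than the first in 8 of the 9 genes, Runx2 being the exception. In spleen the level of the last part was 47.0 RPKM in Ets1, 50.7 in Ets2, 22.0 in Runx3 and 14.7 in Elf1, while the first part of these genes had at most 1.00 RPKM. A long peak counts wholly in the part of its midpoint, so these values include bases of neighbouring parts. They are therefore not means over the part's own bases and can exceed every peak of the gene. In Ets2, for example, the strongest spleen peak had 25.7 RPKM. In Runx2 the mark was instead highest in part 2 (0.908 RPKM in spleen and 1.86 in LI) and the last part held no peak. Cbfb and Gabpa were highest in part 3, with 5.07 and 3.99 RPKM in spleen and LI for Cbfb and 11.7 in both for Gabpa.

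The summed value was higher in LI in each part of a Runx gene that held peaks, which left out the first 2 parts of Runx3 and the last part of Runx2. Not every part differed beyond counting error. The first marked part of Runx3 rested on 1 peak (1.32, SE 0.79). In Runx1 the log2 ratio of the summed peaks in the 5 parts lay between 0.29 and 0.47. In Runx2 it was 0.68 in the first part, whose 2 peaks gave an interval that held 0 (-0.58 to 1.94). It lay between 1.08 and 1.54 in the next 3 parts. In Cbfb the first part, with 3 peaks, had a ratio of 0.36 although its level per length was lower in LI (0.627 RPKM in spleen and 0.558 in LI), since its longest peak was the one higher in spleen. The others lay between -0.62 and -0.44. Over the 39 parts with a peak in the 9 genes, 23 were higher in LI, and 19 when peaks were weighted by length. The same share over all genes was not computed. Of the 341 peak midpoints, 320 lay in introns, 7 in coding exons, 10 in untranslated regions and 4 in exons of non-coding transcripts. Long peaks counted as intronic by midpoint can also cover exons, and the same share over all peaks was not computed.

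A gene's end is not always the end of its mark. A peak of 871 bp that reached past the end of Runx3, with its midpoint outside the body, had 6.17 RPKM in spleen and 12.3 RPKM in LI, a ratio of 0.90 beside 0.69 in the peak just inside. The peak across the end of Ets1 had 12.3 and 16.4 RPKM and a ratio of 0.36, opposite in sign to the peak just inside (30.9 and 28.6 RPKM, -0.16). Past the end of Fli1 the values were 12.0 and 13.5 RPKM.

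Ordered by level per length over the whole body, the genes stood differently in the tissues. In spleen the order was Ets2 (16.2 RPKM), Ets1 (14.2), Fli1 (7.87), Runx1 (7.17), Gabpa (6.84), Runx3 (5.58), Elf1 (4.90), Cbfb (2.44) and Runx2 (0.323). In LI it was Ets2 (17.1 RPKM), Ets1 (12.6), Runx3 (10.4), Runx1 (9.43), Fli1 (8.98), Gabpa (6.16), Elf1 (4.65), Cbfb (1.90) and Runx2 (0.749). Runx3 thus stood at place 6 in spleen and at place 3 in LI. These levels and the percentiles below were not corrected for GC content, which was highest in Runx3 (55.1%). Whether its change of place would remain after such a correction was not tested. Runx1 and Gabpa in spleen were the only neighbours in either order whose difference in log2 level had a counting interval holding 0 (0.07, -0.06 to 0.20). Among 10036 coding genes with a peak, whose median level was 4.27 RPKM in spleen and 4.41 in LI, Runx3 stood at percentile 57.4 in spleen and 76.7 in LI, Ets2 at 90.0 and 89.9, and Runx2 at 11.7 and 18.8.

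The libraries differed in how the ratio ran with base composition, which bears on single genes. In 20 bins of GC content over all peaks, the median log2 ratio rose from -0.53 in the bin with the lowest content to 0.35 in that with the highest. The peaks of Runx3 had a GC content of 55.1%, those of Runx1 49.1% and those of Runx2 48.1%, against 46.5% in the median peak. Divided by the median of their bin, the peaks gave 1.21 for Runx2 (0.98 to 1.43), 0.49 for Runx3 (0.22 to 0.77) and 0.30 for Runx1 (0.21 to 0.38). Their direction was kept, but the order of Runx3 over Runx1 was then within counting error. The ratio of Elf1 became -0.02 and that of Gabpa -0.05, and Ets2 turned from 0.04 to -0.03.

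Other Ets genes and partners were described from lists of names. Of 21 further Ets family genes, 9 had a peak and 8 passed the filter. Past 2-fold were 0 of the 8 in either direction, with 4 higher in LI, 4 higher in spleen and a median of -0.08, against a median of 0.01 over all genes. That median was -0.16 with the GC correction. The highest was Elk3, a ternary complex factor (289 RPKM in spleen and 384 in LI, 0.36, 0.19 to 0.54), and the lowest Erf, an Ets repressor (19.3 and 15.7 RPKM, -0.33, -0.67 to 0.01). Of 20 genes for partners and cofactors of Runx and GABP, such as co-repressors and acetyltransferases, 13 passed the filter, with 3 higher in LI, 10 higher in spleen, 0 past 2-fold and a median of -0.12, which was -0.05 with the GC correction. They ranged from Hdac4, a histone deacetylase (0.17, 0.05 to 0.29), to Tle4, a Groucho co-repressor (-0.35, -0.63 to -0.07).

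**Figure D4:**
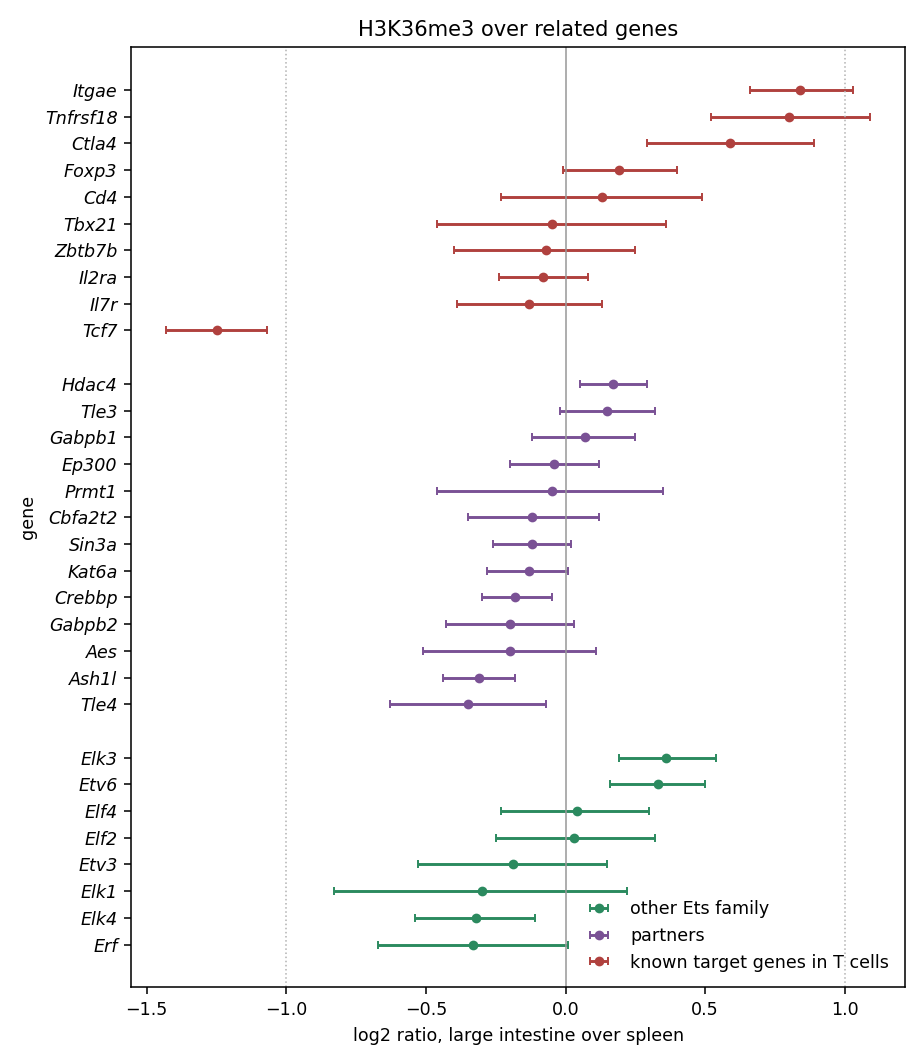
Log2 ratio of summed H3K36me3, LI over spleen (horizontal), with approximate 95% counting intervals for the genes of 3 lists that passed the filter; dotted lines mark 2-fold. Tcf7 at -1.25 is the only point past 2-fold.

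Genes known as targets of Runx or Ets factors in T cells differed in both directions. Of 13 listed, 10 passed the filter, with 5 higher in LI, 5 higher in spleen and a median of 0.04. Past 2-fold were 0 of 10 in LI, against 3.43% of all genes, and 1 of 10 in spleen, against 2.04%. Tcf7, which encodes TCF1, a factor of resting and memory T cells, had 304 and 131 RPKM, a ratio of -1.25 (-1.43 to -1.07), with all 14 peaks higher in spleen. In the other direction, 3 of the 10 genes, named after their values had been seen, had intervals above 0, against 17% of all genes. They were Itgae, which encodes the integrin CD103 (0.84, 0.66 to 1.03), Tnfrsf18, which encodes GITR (0.80, 0.52 to 1.09), and Ctla4, an inhibitory receptor gene (0.59, 0.29 to 0.89). From 10 genes, no difference from the shares over all genes can be read. No set of genes was tested, and a shared direction of a factor and a target says nothing of binding.

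By a rule of nearest summed values among coding genes with at least 200 RPKM, the genes most like Runx2 in both libraries were Mvb12b (233 RPKM in spleen and 501 in LI) and Atf6 (228 and 459), at distances of 0.161 and 0.211 in log2 units. Those most like Cbfb were Tcf20 (195 and 155 RPKM) and Rasa1 (205 and 148), at 0.0431 and 0.0576. With 2 libraries this likeness rests on 2 values per gene.

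The cell type on the labels was checked against marker genes. All 6 Treg and T cell markers (Foxp3, Il2ra, Ctla4, Cd4, Cd3e and Ikzf2) held peaks and passed the filter, with a sum of 1777 RPKM in spleen and 1475 in LI. Ikzf2 alone set this direction, with 1205 and 851 RPKM, and the other 5 markers summed to 572 and 624 RPKM. Of 5 B cell genes, 3 had a peak, with a sum of 60.2 and 53.4 RPKM, and Ms4a1 and Ebf1 had none. Of 6 myeloid genes, 2 had a peak (29.7 and 31.3 RPKM), with none in Lyz2, Itgam, Adgre1 and Cd14. Of 7 intestinal epithelial genes, Epcam and Vil1 had peaks, with a sum that was higher in LI, as the Runx genes were (29.9 and 59.8 RPKM), and Krt8, Krt18, Krt20, Cdh1 and Cdx2 had none. Of the CD8 T cell genes, Cd8a had no peak and Cd8b1 had 21.1 and 9.46 RPKM. The part of such cells in the Runx values was not tested.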

How the data were processed

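H3K36me3 was profiled by ChIP-seq in 1 library per tissue. Per the labels and methods, single-end reads of 75 nt were aligned to mm10 with Bowtie2, peaks were called by MACS2 in each tissue against the input, and both peak sets were merged with bedtools. The deposited values are RPKM coverage averaged over each merged peak by the authors. Their file is called a table of raw counts, yet it holds fractional numbers, so no count test was run. The smallest increments of value times length gave the depths stated in the results. The members and lists were chosen with earlier results of these data known.

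Peak values were summed per GENCODE M21 gene by peak midpoint. LI sums were divided by the ratio of the column totals (log2 0.046). Ratios are log2(value + 0.5) differences, which understate changes of low values, for genes whose sum of both libraries reached 20 RPKM. A gene was called past 2-fold or 1.5-fold. Counting intervals (95%) assumed 200 bp covered per read, treat reads as independent molecules and cover counting error only. On simulated libraries of 8797 genes, 94.8% of them held the true ratio. The simulation drew independent reads of the same 200 bp, so it could not check these assumptions. GC content was read from GRCm38.p6, the assembly of mm10 (no peak ran past the end of any of 21 chromosomes). Of the 20 partner names, 19 were in the annotation. A further gene of the target list and 1 of the B cell list are not reported here and are left out of the counts. The genes named were the 9 members, genes that overlap their peaks, list genes past 2-fold or else the highest and lowest, and the genes nearest in summed values. Alternatives were other scalings, a pseudocount of 5, other filters, weights, peak sets and assignments, and a GC correction. Python 3.11.15, numpy 2.4.6 and pandas 2.3.3 were used.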

Additional observations from a re-analysis of the deposited data

How the results depend on the processing

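The Runx genes stayed higher in LI and Cbfb higher in spleen under each alternative that gave them a value. Runx1 ranged from 0.30 to 0.64, Runx2 from 0.89 to 1.54, Runx3 from 0.49 to 0.97 and Cbfb from -0.44 to -0.21. By the nearest transcript start Cbfb had no peak. The alternatives that moved a ratio beyond its counting error were the strongest peak (0.64 for Runx1, 1.54 for Runx2 and 0.97 for Runx3), the GC correction (0.30 for Runx1), peaks of 1 kb or more (0.89 for Runx2) and the nearest transcript start (-0.36 for Elf1). The sign turned for Ets1 (0.17) and Fli1 (-0.60) with the nearest transcript start, for Ets2 with the GC correction (-0.03) and for Elf1 in its strongest peak (0.05). The median of the target genes turned from 0.04 to -0.05 without a filter and was 0.08 with the GC correction. That of other Ets genes moved from -0.08 to -0.16 with the GC correction and -0.19 without a filter, and that of partners from -0.12 to -0.05 with the GC correction. The cause was not tested. In all, 88 of 98 alternative values for the members stayed within the counting interval of the reported ratio with their sign kept.

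Over all genes, those past 2-fold in LI numbered 120 in peaks of 1 kb or more, 623 without a filter, 70 at 200 RPKM or more, and 99 with the interval wholly past 2-fold, the last an alternative chosen after seeing the data, as was assigning peaks by any overlap. The corresponding numbers in spleen were 40, 457, 39 and 31, and 138 with a pseudocount of 5. That pseudocount left 2971 and 2775 peaks past 2-fold in LI and spleen. The other settings kept these counts within 1.5 times. With 1 library per tissue, no replicate could be left out, and depth limits what single short peaks can show. No paired analysis was possible because each tissue had 1 library.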
